A study of Mus musculus with 7 samples.

Results

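The genes described here are 10 serpins of clade A in mouse liver, namely Serpina1a, Serpina1b, Serpina1c, Serpina1d and Serpina1e, which are near copies of each other, Serpina3k, Serpina3m and Serpina3n, and Serpina6 and Serpina7. They were picked out of the count table by symbol and make up 10 of the 23347 genes in the count table. Liver RNA was sequenced from 7 male mice, 1 library per mouse, all aged 6 to 8 weeks at the start and all fed for 15 weeks the CDAHFD, a diet short of choline and rich in fat that brings on steatohepatitis. The 4 control mice, littermates labelled WT, carried B4galt1 flox/flox, and the 3 mice labelled B4galt1-HKO carried the same floxed alleles with a Cre recombinase driven by the albumin promoter, on a C57BL/6 background, so that B4galt1 should be lost from hepatocytes and kept in other liver cells. B4galt1 encodes an enzyme that adds galactose to the sugar chains of secreted proteins, and the comparison asks how liver transcripts differ when hepatocytes lack it in steatohepatitis. No liver without the diet was analysed here.

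Serpins are proteins that fold around an exposed reactive loop. In the inhibitory members a protease cuts the loop, becomes trapped and is destroyed with the serpin, so the letters of the loop set which proteases are caught. Hepatocytes secrete most of the serpins of blood plasma. The Serpina1 genes encode alpha-1-antitrypsin, the main plasma inhibitor of neutrophil elastase, which is a single gene in humans and a cluster in mice. Serpina3k encodes contrapsin, and Serpina3n encodes an acute-phase inhibitor of granzyme B and cathepsin G. Serpina6 and Serpina7 encode corticosteroid-binding globulin and thyroxine-binding globulin, which carry hormones and inhibit no protease.

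The Serpina1 copies were near identical, and their differences were denser in the loop than in the rest of the coding sequence. Over the 1239 aligned coding bases, each pair among Serpina1a to Serpina1e was between 96.3% and 98.5% identical, and the closest pair was Serpina1a and Serpina1c. In the 72 coding bases that begin at the hinge of the reactive loop, 17 positions (23.6%) differed among the 5 copies, against 69 of the 1167 other coding bases (5.91%). These stretches are shown because they are the part of the message in which the copies encode different inhibitors. They come from GENCODE transcripts of GRCm38 paired with RefSeq entries, run 5′ to 3′, and have the positions that differ among the 5 copies in capitals.
Serpina1a: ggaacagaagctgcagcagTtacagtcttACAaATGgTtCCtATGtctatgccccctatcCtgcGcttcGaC
Serpina1b: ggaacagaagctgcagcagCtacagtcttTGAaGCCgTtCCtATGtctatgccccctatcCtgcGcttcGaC
Serpina1c: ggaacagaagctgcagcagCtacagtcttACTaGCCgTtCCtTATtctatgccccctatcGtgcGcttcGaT
Serpina1d: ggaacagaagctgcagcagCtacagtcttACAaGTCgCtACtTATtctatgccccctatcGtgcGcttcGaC
Serpina1e: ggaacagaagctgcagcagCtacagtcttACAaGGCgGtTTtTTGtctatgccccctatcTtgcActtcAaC

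The Serpina3 copies were further apart, with 91.7% identity between Serpina3k and Serpina3m, 85.2% between Serpina3m and Serpina3n and 82.9% between Serpina3k and Serpina3n. Their loops differed at 34 of 72 positions (47.2%), again in capitals, against 219 of the other 1188 aligned positions (18.4%).
Serpina3k: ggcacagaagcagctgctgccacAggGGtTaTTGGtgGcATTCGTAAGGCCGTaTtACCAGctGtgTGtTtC
Serpina3m: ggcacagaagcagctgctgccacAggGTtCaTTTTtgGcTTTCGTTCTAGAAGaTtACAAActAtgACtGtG
Serpina3n: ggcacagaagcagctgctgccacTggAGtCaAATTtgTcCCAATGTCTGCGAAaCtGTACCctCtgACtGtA

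This likeness limits what a count per copy means, because a read from a shared stretch cannot be placed. Of the 100-base windows of each transcript, 61% in Serpina1a, 58.5% in Serpina1c, 29.3% in Serpina1d, 26.4% in Serpina1b and 18.2% in Serpina1e were found unchanged in a transcript of another gene. The share was 6.09% in Serpina3m, 4.85% in Serpina3k and 0.204% in Serpina3n, and 0% in Serpina6 and Serpina7. How reads that match several copies were counted is not given in the sources used here, and for that reason the summed counts of Serpina1a to Serpina1e (the Serpina1 sum) and of Serpina3k, Serpina3m and Serpina3n (the Serpina3 sum) are given beside the single copies.

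In the annotation of GRCm38 the genes Serpina6, Serpina1b, Serpina1d, Serpina1a, Serpina1c and Serpina1e follow each other in that order on the minus strand of chromosome 12. Serpina3k, Serpina3m and Serpina3n follow on the plus strand, and Serpina7 lies on the minus strand of chromosome X. RefSeq promoter sequences of GRCm38.p6 were at hand for 7 of the 10 genes. Stretches of 117 bases upstream of the annotated starts of the Serpina1 copies are shown to give the positions at which the copies differ. They were lined up on a short run of bases that the 5 copies share, so some likeness was built into the choice. They end 5, 10, 11, 0 and 62 bases before the annotated starts of Serpina1a to Serpina1e, in that order. In them 10 positions differed among the copies (8.55%, in capitals), a larger share than the 5.91% of the coding bases outside the loop.
Serpina1a, chr12:103863625-103863741, minus strand: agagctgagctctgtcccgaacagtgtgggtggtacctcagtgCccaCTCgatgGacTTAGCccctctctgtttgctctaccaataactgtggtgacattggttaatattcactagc
Serpina1b, chr12:103738200-103738316, minus strand: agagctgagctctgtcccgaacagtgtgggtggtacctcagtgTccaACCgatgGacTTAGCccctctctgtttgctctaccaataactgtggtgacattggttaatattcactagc
Serpina1c, chr12:103904962-103905078, minus strand: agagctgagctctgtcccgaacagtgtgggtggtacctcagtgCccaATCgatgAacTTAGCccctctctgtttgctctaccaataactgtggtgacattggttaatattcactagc
Serpina1d, chr12:103773634-103773750, minus strand: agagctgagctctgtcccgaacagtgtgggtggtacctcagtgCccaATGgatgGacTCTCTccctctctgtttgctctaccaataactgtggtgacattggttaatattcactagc
Serpina1e, chr12:103956960-103957076, minus strand: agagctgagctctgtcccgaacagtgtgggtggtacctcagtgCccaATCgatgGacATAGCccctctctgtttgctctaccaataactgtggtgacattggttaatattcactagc

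Before the comparison, the targeted gene was read in every library. B4galt1 stood at 48.7, 53.0, 49.2 and 51.6 CPM, the count relative to the library size after scaling by edgeR's TMM factors, in WT replicates 1 to 4 and at 28.4, 23.9 and 53.7 CPM in B4galt1-HKO replicates 1 to 3. The library labelled B4galt1-HKO replicate 3 was thus above every WT library, against its label, and results are given with and without it. Total counts ranged from 37838654 to 39668509 in WT and from 30608271 to 34586588 in B4galt1-HKO libraries. Mitochondrially encoded transcripts took 3.88% to 7.996% of WT counts and 14.4% to 22.6% of B4galt1-HKO counts, and the 10 serpins took 1.01% to 1.499% and 0.978% to 1.48%. Of the counts that were not mitochondrially encoded, the serpins took 1.05% to 1.63% in WT and 1.26% to 1.73% in B4galt1-HKO libraries. The 10 hepatocyte markers summed to between 101189 and 142881 CPM in WT and between 103961 and 168134 CPM in B4galt1-HKO livers. In bulk tissue, fewer cells of a type and less RNA per cell cannot be told apart.

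None of the 10 genes differed between the groups in edgeR's quasi-likelihood test, in which a call needs an adjusted p under 0.05 together with a log2 fold change beyond 0.58 in either direction, the thresholds of the study. All 10 passed the filter on low counts. Of the 15179 genes tested, 2404 (15.8%) were called, 1215 of them higher (8%) and 1189 lower (7.83%) in B4galt1-HKO livers. On the FPKM scale the balance of all calls was different, with 561 higher and 1733 lower, and the median log2 fold change of all genes was shifted by -0.12. DESeq2 also called 0 of the 10 genes. At an unadjusted p under 0.05 the edgeR test had 2 of them, Serpina1a and Serpina1e. Without the library labelled B4galt1-HKO replicate 3 it called 3 of the 10, all lower, where 7.51% of 15639 tested genes were called lower. The members are not replicates of each other, since near copies share stretches in which a read cannot be placed.

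**Figure D1:**
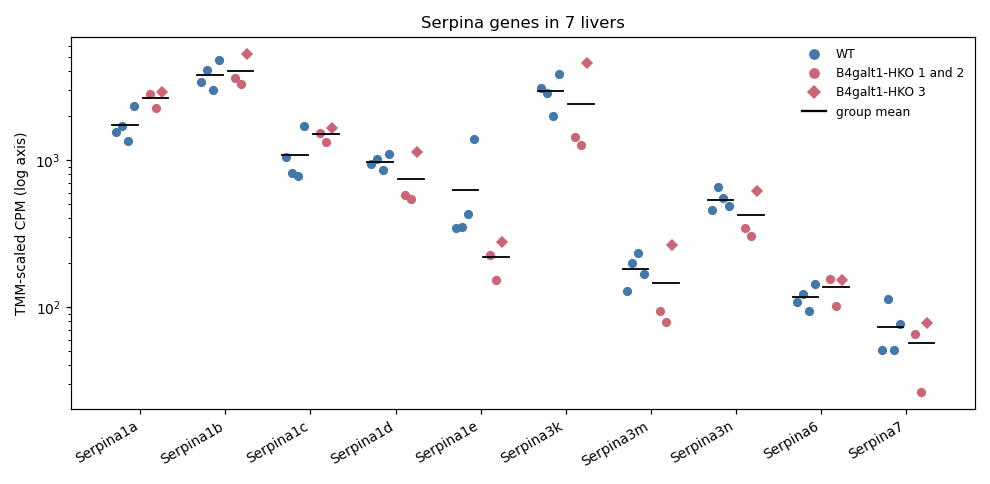
TMM-scaled CPM (log axis) of the 10 serpins in each of 7 livers, WT in blue and B4galt1-HKO in red, with bars at group means and diamonds for B4galt1-HKO replicate 3. Only Serpina1e has groups that do not overlap, and in Serpina3k, Serpina3m and Serpina1d the diamond stands above every WT liver while the other B4galt1-HKO livers stand below every one.

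Per kilobase of gene length, Serpina1b was the most abundant of the 10 in WT livers, at 2675 ± 554 CPM per kilobase (SD, n = 4), the 24th highest level of the 15179 tested genes. Serpina3k followed at 1787 ± 463 CPM per kilobase. Serpina1a (896 ± 220), Serpina1c (761 ± 298) and Serpina1d (674 ± 72.9) came next in CPM per kilobase and overlapped one another between mice. Serpina1e stood at 458 ± 374 and Serpina3n at 241 ± 38.4 CPM per kilobase, and they too overlapped. Serpina3m (110 ± 27.4), Serpina6 (72.6 ± 12.9) and Serpina7 (29.8 ± 12.2 CPM per kilobase) were lowest, and the ranges of Serpina3m and Serpina6 overlapped while those of Serpina6 and Serpina7 did not. In B4galt1-HKO livers the order was the same except that Serpina3n, at 189 ± 75.1 CPM per kilobase (SD, n = 3), stood above Serpina1e, at 160 ± 45.5. These levels rest on lengths of 1939 bases for Serpina1a and 1374 to 1442 bases for the other Serpina1 copies. The Serpina1a transcript compared above has 1360 bases. How reads that match several copies were counted is not given, so the order among the copies and Serpina3k is not secured.

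The alpha-1-antitrypsin message as a whole differed by less than the spread between mice. The Serpina1 sum was 7253, 7990, 6397 and 11298 CPM in WT replicates 1 to 4 and 8722, 7567 and 11208 CPM in B4galt1-HKO replicates 1 to 3. The B4galt1-HKO values all lie within the WT range. The fitted log2 fold change was 0.15 (SE 0.28, 95% interval -0.45 to 0.76, edgeR adjusted p = 0.730), in a table with the copies replaced by their sums in which 15.8% of 15173 rows were called (7.99% higher and 7.84% lower). Without B4galt1-HKO replicate 3 the log2 fold change was -0.024, below 0.

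Beneath that sum the copies were not alike. Serpina1e was at 343, 348, 427 and 1398 CPM in WT livers and at 226, 154 and 278 CPM in B4galt1-HKO livers. Every B4galt1-HKO value was below every WT value, as for 15% of tested genes, and Serpina1e was the only member whose groups did not overlap. Its log2 fold change was -1.52 (SE 0.48, 95% interval -2.58 to -0.46, edgeR adjusted p = 0.0527), just outside the threshold. WT replicate 4 was far above the other 3 WT livers, and without it the log2 fold change was -0.77 (edgeR adjusted p = 0.0806). Without WT replicate 1 it was -1.72 and passed the threshold (edgeR adjusted p = 0.0325).

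Serpina1a and Serpina1c, the closest pair in sequence, had higher means in B4galt1-HKO livers. Serpina1a was at 1561, 1708, 1345 and 2338 CPM in WT and at 2791, 2247 and 2893 CPM in B4galt1-HKO livers, where only WT replicate 4 exceeded the lowest B4galt1-HKO liver. The log2 fold change was 0.61 (SE 0.25, 95% interval 0.07 to 1.14, edgeR adjusted p = 0.111). Serpina1c was at 1047, 816, 777 and 1695 CPM in WT and at 1536, 1318 and 1662 CPM in B4galt1-HKO livers, which lay between WT replicate 1 and WT replicate 4. Its log2 fold change was 0.47 (SE 0.28, edgeR adjusted p = 0.270), and 0.77 without WT replicate 4 (edgeR adjusted p = 0.0625). Over the 7 mice the log2 CPM values of Serpina1a and Serpina1c had a Pearson r of 0.91, as a description of copies that share much sequence.

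Serpina1b, the most abundant copy, was at 3366, 4110, 2998 and 4771 CPM in WT and at 3594, 3310 and 5250 CPM in B4galt1-HKO livers. The groups overlapped widely, with a log2 fold change of 0.09 (SE 0.26, 95% interval -0.49 to 0.67, edgeR adjusted p = 0.844). Serpina1d was at 937, 1008, 849 and 1096 CPM in WT and at 575, 539 and 1125 CPM in B4galt1-HKO livers. B4galt1-HKO replicates 1 and 2 were below every WT liver and replicate 3 was above every one, for a log2 fold change of -0.38 (SE 0.28, edgeR adjusted p = 0.361). Without replicate 3 Serpina1d passed the threshold, at -0.81 (edgeR adjusted p = 0.0356).

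The share of each copy within the Serpina1 sum does not depend on the size of the library and was compared by a two-sided exact permutation test over the 7 mice, which has 35 splits and cannot give a p under 0.0286. Serpina1a made up 21.5%, 21.4%, 21.0% and 20.7% of the sum in WT livers, a spread of under 1 percentage point. In B4galt1-HKO livers it made up 32.0%, 29.7% and 25.8%, so that even the liver with B4galt1 at the WT level was above every WT liver. The mean share was 21.2% ± 0.368 (SD, n = 4) in WT and 29.2% ± 3.13 (SD, n = 3) in B4galt1-HKO livers, a difference of 8.02 percentage points (exact p = 0.0286, the smallest this design allows, among 9 such quantities compared). Leaving out any 1 mouse, the difference stayed between 6.60 and 9.69 percentage points.

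**Figure D2:**
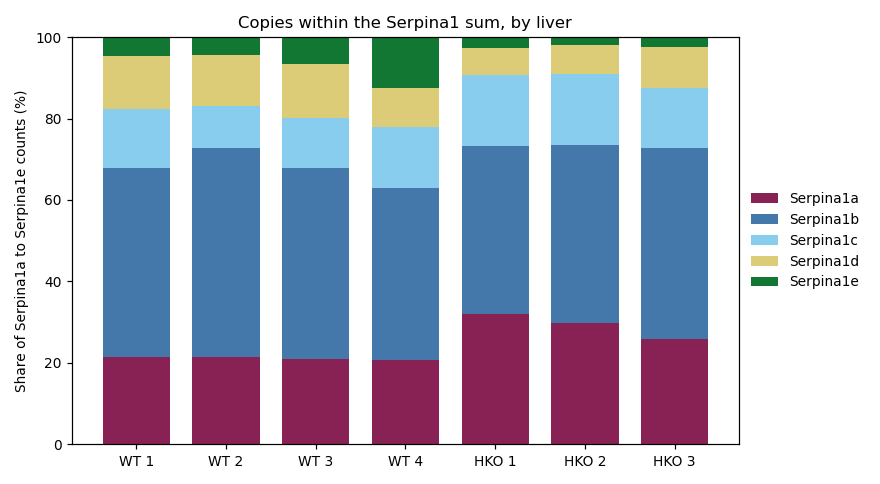
Share (%) of each of the 5 Serpina1 copies in their summed counts, 1 stacked bar per liver, for 4 WT and 3 B4galt1-HKO (HKO) livers. The bottom segment, Serpina1a, is 20.7% to 21.5% in WT and 25.8% to 32.0% in B4galt1-HKO livers, and the top segment, Serpina1e, is 4.35% to 12.4% in WT and 2.03% to 2.60% in B4galt1-HKO livers.

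Serpina1e made up 4.73%, 4.35%, 6.68% and 12.4% of the Serpina1 sum in WT livers and 2.60%, 2.03% and 2.48% in B4galt1-HKO livers. The groups did not overlap, but with the wide spread of the WT livers the difference of -4.67 percentage points had an exact p of 0.0857. It was -2.88 percentage points without WT replicate 4, which has the highest share. Serpina1d made up 12.1% ± 1.64 in WT and 7.91% ± 1.86 in B4galt1-HKO livers (exact p = 0.0857), with B4galt1-HKO replicate 3, at 10.04%, above WT replicate 4, at 9.70%. Serpina1c made up 12.95% ± 2.20 in WT and 16.6% ± 1.55 in B4galt1-HKO livers (exact p = 0.114), and Serpina1b 46.7% ± 3.77 and 43.9% ± 2.83 (exact p = 0.343). Shares of 1 sum are tied to each other. In a calculation added after the data were seen, with Serpina1e left out of the sum, Serpina1a again had the higher share in every B4galt1-HKO liver (29.9% ± 3.21 against 22.8% ± 0.573, exact p = 0.0286). Serpina1b (45.0% ± 2.88 against 50.2% ± 2.52) and Serpina1d (8.11% ± 1.91 against 13.01% ± 1.36) then had the lower share in every B4galt1-HKO liver, each with an exact p of 0.0286. For Serpina1b the groups were barely apart, at 48.0% in B4galt1-HKO replicate 3 and 48.2% in WT replicate 4.

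The levels of the Serpina3 genes split the B4galt1-HKO livers. Serpina3k, contrapsin, was at 3087, 2865, 1998 and 3856 CPM in WT livers and at 1438, 1254 and 4537 CPM in B4galt1-HKO livers. Replicates 1 and 2 were below every WT liver, and replicate 3 was the highest of all 7. The log2 fold change was -0.29 with a wide error (SE 0.42, 95% interval -1.21 to 0.63, edgeR adjusted p = 0.660). Serpina3m, the closest copy of Serpina3k, was at 128, 199, 235 and 167 CPM in WT and at 93.3, 79.5 and 265 CPM in B4galt1-HKO livers, with a log2 fold change of -0.32 (SE 0.38, edgeR adjusted p = 0.592). It split the B4galt1-HKO livers in the same manner.

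Serpina3n, the acute-phase inhibitor, was at 460, 651, 550 and 485 CPM in WT and at 345, 306 and 613 CPM in B4galt1-HKO livers. Here too replicates 1 and 2 were below every WT liver, and replicate 3 lay within the WT range. The log2 fold change was -0.35 (SE 0.27, 95% interval -0.93 to 0.23, edgeR adjusted p = 0.389). The Serpina3 sum was 3674, 3716, 2782 and 4508 CPM in WT and 1875, 1640 and 5415 CPM in B4galt1-HKO livers, with a log2 fold change of -0.30 (SE 0.39, edgeR adjusted p = 0.623). On the FPKM scale, with limma on log2(FPKM + 1), the sum was at -0.63, Serpina3k at -0.64 and Serpina3m at -0.62. None of them passed there (limma adjusted p = 0.187, 0.220 and 0.199).

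Without the library labelled B4galt1-HKO replicate 3, the Serpina3 sum passed the threshold as lower in B4galt1-HKO livers, with a log2 fold change of -1.07 (edgeR adjusted p = 0.0265). Serpina3k was then at -1.14 (edgeR adjusted p = 0.0307), Serpina3m at -1.08 (edgeR adjusted p = 0.0288) and Serpina3n, which did not pass, at -0.73 (edgeR adjusted p = 0.0585). That library is also the one in which B4galt1 stood at the WT level, and with 1 such liver its part in the result was not tested.

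**Figure D3:**
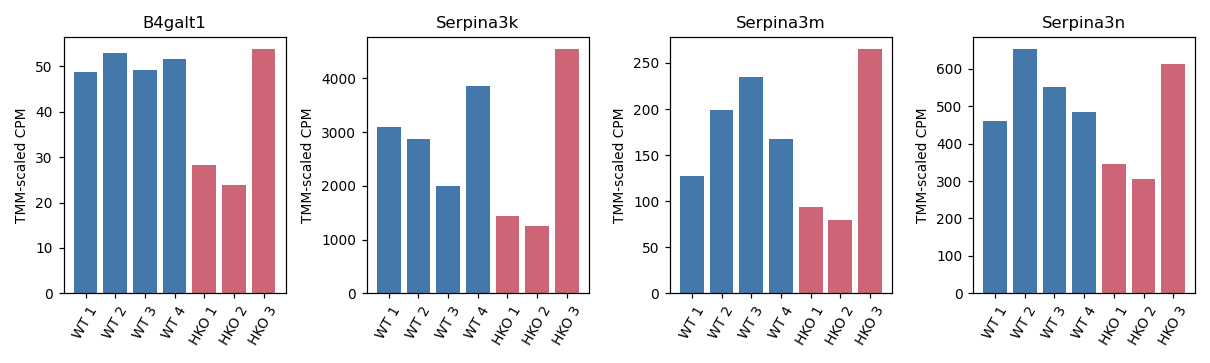
TMM-scaled CPM of B4galt1, Serpina3k, Serpina3m and Serpina3n in each of 4 WT (blue) and 3 B4galt1-HKO (HKO, red) livers, 1 bar per liver and axes from 0. B4galt1-HKO replicate 3 has B4galt1 at 53.7 CPM and Serpina3k at 4537 CPM, against 23.9 to 28.4 CPM and 1254 to 1438 CPM in the other B4galt1-HKO livers.

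Within the Serpina3 sum, Serpina3k made up 79.6% ± 6.37 in WT and 79.0% ± 4.17 in B4galt1-HKO livers (exact p = 0.829). Serpina3n made up 15.1% ± 4.22 and 16.1% ± 4.15 (exact p = 0.829), and Serpina3m 5.24% ± 2.28 and 4.90% ± 0.0644 (exact p = 0.886). The log2 ratio of Serpina3n to Serpina3k was -2.43 ± 0.52 in WT and -2.33 ± 0.48 in B4galt1-HKO livers (exact p = 0.829). With 7 mice these tests could not show a small difference, and which mice were kept decided the values. Without the library labelled B4galt1-HKO replicate 3 the differences in share were -3.05 percentage points for Serpina3k and 3.37 for Serpina3n, and that in the log2 ratio was 0.39 (exact p = 0.40). Over the mice left out in turn the difference ranged from -3.25 to 1.34 percentage points for Serpina3k, from -0.49 to 3.37 for Serpina3n and from -0.92 to 0.72 for Serpina3m, and the log2 ratio from -0.080 to 0.39. Over the 7 livers, Serpina3k had its highest Pearson r among the members with Serpina1d (0.96), a gene of the other cluster with 55.9% coding identity to it, and Serpina3m with Serpina3n (0.95). Between Serpina1a and Serpina1d, both of the Serpina1 cluster, r was -0.17 over the 7 livers and 0.54 once each group's mean was removed, while the same step left Serpina3k and Serpina1d at 0.98 and Serpina3m and Serpina3n at 0.94. These are descriptions over 7 libraries that also share their scaling.

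Serpina6 and Serpina7, the hormone carriers, share no window of 50 bases with another gene, so that reads of other genes do not enter their counts by identity. Serpina6 was at 108, 123, 94.5 and 143 CPM in WT and at 155, 101 and 152 CPM in B4galt1-HKO livers, where the groups overlapped. Its log2 fold change was 0.22 (SE 0.22, 95% interval -0.26 to 0.70, edgeR adjusted p = 0.525), and 0.099 to 0.39 with 1 mouse left out. Serpina7 was at 50.8, 114, 50.7 and 77.0 CPM in WT and at 65.0, 26.5 and 77.8 CPM in B4galt1-HKO livers, again overlapping. Its log2 fold change was -0.37 (SE 0.37, 95% interval -1.18 to 0.43, edgeR adjusted p = 0.513). It was -0.036 without B4galt1-HKO replicate 2, the lowest liver, -0.084 without WT replicate 2, the highest, and -0.68 without B4galt1-HKO replicate 3.

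**Figure D4:**
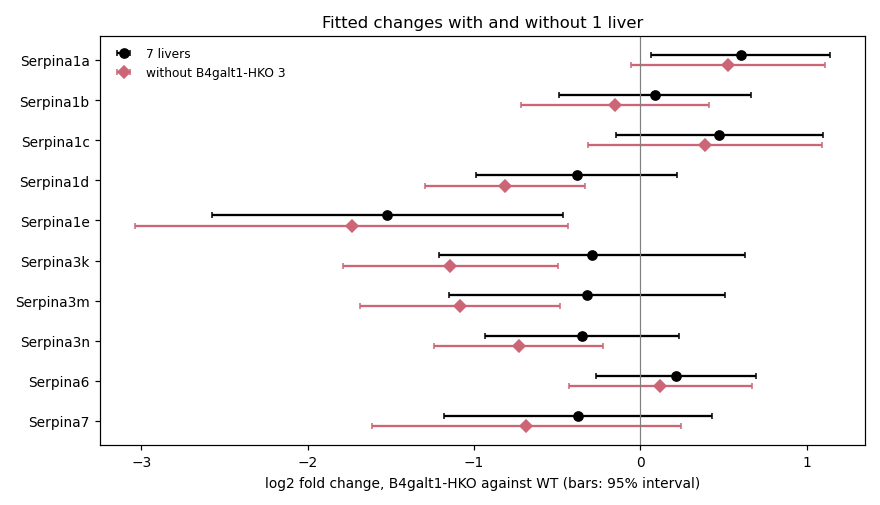
log2 fold change of each serpin in B4galt1-HKO against WT livers with its 95% interval from edgeR, for all 7 livers (black) and without B4galt1-HKO replicate 3 (red). Leaving out that liver moves Serpina3k from -0.29 to -1.14 and Serpina3m from -0.32 to -1.08, and moves Serpina1a only from 0.61 to 0.53.

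Other serpins were read from lists of related genes. Of 7 tested genes of clade A, 0 were called, and the median was -0.024 on the log2 scale, against 0.021 over all tested genes. At an unadjusted p under 0.05 edgeR had 0 of the 7, and DESeq2 called 0. They include Serpina10, the protein Z-dependent inhibitor of coagulation factor Xa, at 168 and 121 CPM (log2 fold change -0.47, edgeR adjusted p = 0.222), and Serpina11, at 58.8 and 57.9 CPM in WT and B4galt1-HKO livers. Of 14 tested serpins of other clades, 5 were called lower and 1 higher, with a median of -0.63. Serpinb6a (-1.17), Serpinb9 (-1.09) and Serpinb8 (-1.08), inhibitors that stay inside cells, were lower on the log2 scale. So were Serpine2 (-0.92), which inhibits thrombin at cell surfaces, and Serpind1 (-0.75), heparin cofactor II, a plasma inhibitor of thrombin made by hepatocytes. With B4galt1-HKO replicate 3 left out, 5 were lower and 0 higher, but not the same 5. Serpinb8 (log2 fold change -1.06, edgeR adjusted p = 0.0670) and Serpine2 (-0.83, 0.111) were then no longer called, while Serpinb1a (-2.001 on the log2 scale) and Serping1 (-0.97), the C1 inhibitor of complement, were.

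Of 7 tested genes of a list of proteases, most of them targets of inhibitory serpins, 0 were called, and the median log2 fold change was 0.096. At an unadjusted p under 0.05 edgeR had 2 of them, and DESeq2 called 1. Klkb1, plasma kallikrein, which hepatocytes secrete, was at 207 and 221 CPM in WT and B4galt1-HKO livers, and Cela1, an elastase, at 11.1 and 8.45 CPM. Prtn3, proteinase 3 of neutrophils, was at 0.414, 0.728, 0.445 and 0.848 CPM in WT and at 1.43, 1.39 and 2.04 CPM in B4galt1-HKO livers, so that the groups did not overlap, as for 13.6% of tested genes in that direction. Its log2 fold change was 1.41 (edgeR adjusted p = 0.0544). Mmp9, a metalloprotease of neutrophils and macrophages that serpins do not trap and that can cleave alpha-1-antitrypsin, was at 0.897 to 1.55 CPM in WT and at 0.460 to 0.779 CPM in B4galt1-HKO livers, again without overlap, with a log2 fold change of -1.08 (edgeR adjusted p = 0.123). Elane, neutrophil elastase, had means of 0.238 CPM in WT and 0.0739 CPM in B4galt1-HKO livers and did not pass the filter on low counts. Prtn3, Mmp9 and Elane were named after their values were seen.

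Of 26 tested regulators of liver and acute-phase transcription, 4 were called higher and 1 lower, and the median was 0.38 on the log2 scale. Il1r1, the receptor for interleukin-1, was higher by 1.39 on the log2 scale (105 ± 28.6 against 40.1 ± 11.9 CPM), Socs2, a brake on growth hormone signalling, by 1.28, Osmr, the oncostatin M receptor, by 1.16, and Cebpb, an activator of acute-phase genes, by 0.94. Stat3, which carries the interleukin-6 signal, fell by 0.60 on the log2 scale. Leaving B4galt1-HKO replicate 3 out gave 3 higher and 3 lower, with Socs2, at 1.07, no longer called (edgeR adjusted p = 0.0970). Hnf4a, which maintains hepatocyte genes, was at 479 ± 116 against 440 ± 54.9 CPM (edgeR adjusted p = 0.730). It was named after its values were seen.

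Of 23 tested acute-phase genes, 3 were called higher and 2 lower, and the median was -0.022 on the log2 scale. Mt2 (2.43) and Mt1 (2.36), which bind zinc, and Orm3 (1.498), an orosomucoid, were higher on the log2 scale, while Crp (-1.10) and Saa1 (-1.10), classical acute-phase proteins, were lower. Leaving out B4galt1-HKO replicate 3 gave 2 higher and 4 lower. Orm3, at 10.8, 13.8 and 35.9 CPM in B4galt1-HKO replicates 1 to 3, was then at 0.78 on the log2 scale and no longer called (edgeR adjusted p = 0.109). Fga (-1.89 on the log2 scale, edgeR adjusted p = 0.00675) and Fgg (-1.41, 0.0159), chains of fibrinogen, were then called lower. Fga was at 1679 to 2901 CPM in WT livers and at 617, 522 and 2463 CPM in B4galt1-HKO livers. As for Serpina3n, replicates 1 and 2 were below every WT liver and replicate 3 lay within the WT range. The log2 fold change of Fga over all 7 livers was -0.80 (edgeR adjusted p = 0.266). Of 20 tested genes for folding and export of secreted proteins, 1 was called in each direction, with a median of -0.24 and values below 0 for 17. Canx, the chaperone calnexin that holds newly made glycoproteins, was at 168, 211, 256 and 208 CPM in WT and at 93.0, 60.5 and 116 CPM in B4galt1-HKO livers (log2 fold change -1.23, edgeR adjusted p = 0.0106). Syvn1, a ubiquitin ligase for misfolded proteins, was higher by 0.89. In the fit that leaves out B4galt1-HKO replicate 3, 1 was higher and 3 lower.

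Of 15 tested genes for hormone binding and response, 2 were called higher and 1 lower, with a median of 0.25 on the log2 scale. Tsc22d3 (1.30) and Per1 (0.90), which glucocorticoids induce, were higher. Without B4galt1-HKO replicate 3, 1 was called in each direction, and Tsc22d3, at 1.25, did not pass (edgeR adjusted p = 0.0600).

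Markers of other liver cells were read from lists. Of 10 macrophage and Kupffer cell markers, 5 were called lower, where 7.83% of all tested genes were, namely Adgre1 (-1.88), Gpnmb (-1.72), Vsig4 (-1.24), Cd68 (-1.15) and Trem2 (-0.83), and all 10 had values below 0. Their summed level was 989 to 2009 CPM in WT and 521 to 564 CPM in B4galt1-HKO livers, and 0 of the 10 were at 0 in every liver. Without B4galt1-HKO replicate 3, 3 were called lower, without Vsig4 (log2 fold change -1.33, edgeR adjusted p = 0.0592) and Trem2 (-0.76, 0.0643). WT replicate 3 stood apart in these markers, with the highest level of each of the 10. Adgre1 was at 25.6, 23.2, 71.3 and 20.1 CPM in WT replicates 1 to 4, and the endothelial markers Lyve1 and Kdr were at 4.25, 2.74, 48.4 and 5.001 and at 10.3, 10.5, 35.2 and 21.7 CPM. In a fit added after the data were seen, without that liver, 3 of 9 tested macrophage markers were called lower, among them Adgre1 (log2 fold change -1.27, edgeR adjusted p = 0.0152). Lum and Kdr, given next, were then not called (edgeR adjusted p = 0.0652 and 0.0957), and Lyve1 was called higher (log2 fold change 1.26, edgeR adjusted p = 0.0412). Of the calls named so far, those of Serpinb8, Serpine2, Serpind1, Stat3, Saa1, Per1, Vsig4 and Trem2 were also lost without WT replicate 3. Their edgeR adjusted p was then between 0.0574 and 0.0999. The part of these cells in the values of the serpins was not tested. Of 8 neutrophil, 8 lymphocyte and 8 cholangiocyte markers edgeR called 0, with 1, 0 and 0 at an unadjusted p under 0.05, and DESeq2 called 0. Of 10 stellate cell and fibroblast markers Lum was lower (-1.08), of 8 endothelial markers Kdr was lower (-1.33), and of 10 hepatocyte markers Cyp2e1 was lower (-1.32). Of 13 mitochondrially encoded genes 12 were called higher. Without B4galt1-HKO replicate 3 these counts were 1 neutrophil marker, 0 lymphocyte, 0 cholangiocyte, 0 stellate and 0 endothelial markers, 2 hepatocyte markers and 13 mitochondrial genes.

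The genes most like the serpins in their pattern over the 7 mice were sought among 7485 genes of at least median abundance, by the Pearson correlation of log2 CPM. For the Serpina1 sum they were Csnk2a1 (0.97), Atp5g1 (0.97) and Hoga1 (0.96). For the Serpina3 sum they were Ddc (0.98), Tmem37 (0.98) and Eif4a1 (0.98), and for Serpina3n Acox2 (0.97), Fam98a (0.96) and Selenoi (0.96). Mrpl36 (0.98), Iscu (0.98) and Ifi27l2b (0.98) were most like Serpina6, and Pgm3 (0.98), Plcl2 (0.97) and Cmah (0.96) most like Serpina7. Out of so many genes over 7 mice such values are a description of these libraries.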

How the data were processed

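Liver RNA of 7 mice was extracted with TRIzol and made into libraries with a VAHTS Universal V6 kit. The submitters' processing notes name fastp, HISAT2, HTSeq, DESeq2, R 3.2.0 and the build GRCm39, and how reads of near copies were counted and the annotation are not given in the sources used here. The authors deposited raw counts per gene and mouse. The authors also deposited FPKM values, which for 13374 genes equalled the count divided by a length and by the library's total, within 7.22e-06%. FPKM entered the alternatives, and the lengths entered levels per kilobase.

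Genes with too few counts were removed with filterByExpr (minimum count 10, minimum total 15), leaving 15179 of 23347. Group was the only term of the quasi-likelihood model, run in edgeR 4.0.16 under R 4.3.3 on TMM-scaled libraries after a check on simulated data. In that check 51.6% of the 192 genes given a change were called, with 2 false calls, so real changes can be missed. The p-values were adjusted over all genes by Benjamini-Hochberg. Calls needed an adjusted p under 0.05 together with a log2 fold change beyond 0.58 in either direction. Standard errors and 95% intervals come from the F statistic. A count of 3 corresponds to 0.0690 to 0.0987 CPM, and this floor covers counting error only. Shares and ratios were compared by exact permutation tests over mice, without adjustment over the list. The labels do not say that the mice came from separate litters or cages, and p-values measure the spread between these mice.

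Coding sequences were aligned with MAFFT 7.526. Sequences come from GENCODE and RefSeq on GRCm38.p6, another build than that of the counts, and amino acid sequences were not used here. The members, lists and tests were chosen with earlier results of these data known. The text names all members and sums, up to 6 genes per list (those called with the largest changes, or the most abundant per length where fewer than 2 were called), the 3 genes most alike in pattern and B4galt1. Not every gene that the rule allows is named, and some are not reported here. Calls and fold changes of the members and sums were recomputed with DESeq2 1.42.0, with RLE or upper-quartile scaling, with other filters, with limma 3.58.1 on FPKM (pseudocounts 1 and 0.1 before log2), with a replicate block, without mitochondrial genes, without the fold change threshold (calls only) and without each mouse. Shares and the ratio were recomputed from FPKM and without each mouse. Shares without Serpina1e and list counts without B4galt1-HKO replicate 3 and without WT replicate 3 were added after the data were seen. Replicate numbers did not pair the mice. No 2 libraries agreed within sampling noise.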

Additional observations from a re-analysis of the deposited data

Results flagged for a closer look

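In WT replicate 4 Serpina1e stood at 1398 CPM, against 343 to 427 CPM in the other 3 WT livers. The gap to the nearest liver was 0.920 of the range of the 4 livers, above Dixon's 95% critical value. Chance alone would give such a gap in about 1 of 20 groups, and 1 was found among 21 tested.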

How the results depend on the processing

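Serpina1e passed the thresholds as the 1 member called with a filter of at least 1 count in any mouse, with at least 10 counts in every mouse, with limma on log2(FPKM + 1) and on log2(FPKM + 0.1), and without WT replicate 1. Its adjusted p ranged from 0.00456 to 0.137 over its alternatives. Leaving out each mouse in turn, 0 to 3 members were called, and 885 to 2396 of all genes. Limma on log2(FPKM + 1) for all genes above 0 called 1330 genes. With the replicate number as a block 1225 genes and 0 members were called, and the same-numbered mice deviated together with correlations of only -0.31, -0.02 and 0.07. The log2 fold change of the Serpina1 sum ranged from -0.0242 (without B4galt1-HKO replicate 3) to 0.35 with a mouse left out, and that of the Serpina3 sum from -1.07 (without the same liver, the only setting that passed) to -0.0101. With limma on log2(FPKM + 1) the Serpina1 sum was at 0.009, against 0.15 in the main fit. Serpina1b changed sign with limma (-0.0440 in each of 3 fits), without WT replicate 3 (-0.01) and without B4galt1-HKO replicate 3 (-0.15), with 0.21 as the highest value with a mouse left out. Serpina3k ranged from -1.14 to 0.0170 with a mouse left out and changed sign without B4galt1-HKO replicate 2. With Serpina1e left out of the sum, the differences in share of Serpina1b (-5.23 percentage points) and Serpina1d (-4.90) reached an exact p of 0.0286. The causes were not tested. The other shares kept their side of the threshold with FPKM in place of counts and moved by less than the spread between mice with each mouse left out. Limits are 7 mice, 1 liver whose B4galt1 goes against its label, and copies that share stretches in which a read cannot be placed.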
